A study of Mus musculus with 2 samples.

Results

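The genes described here encode potassium, sodium and voltage-gated calcium channels. They were chosen by name, as every array gene whose symbol begins with Kcn, with Scn followed by a number and a or b, or with Cacna, Cacnb or Cacng and a number. The rule found 121 of the 27957 named genes on the array, read by 193 of its 41168 probes. Of these genes, 84 were named as potassium channel genes, 12 as sodium channel genes and 25 as calcium channel genes. One of the 84, Kcnq1ot1, is a non-coding RNA of the Kcnq1 locus and not a channel. The array also carries Scn2a1, Scnn1a, Scnn1b and Scnn1g, whose names the rule does not take, and they are described with the other channels below.

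Ion channels are pores in the cell membrane. Voltage-gated channels open when the membrane depolarises: sodium channels carry the upstroke of the action potential, calcium channels let in the calcium that triggers secretion, contraction and gene expression, and potassium channels return the membrane to rest. Inward rectifier and leak potassium channels set the resting potential, also in dividing cells that do not fire. Neural progenitor cells are known mainly for such resting potassium currents, and many sodium and calcium channel genes are turned on as neurons mature.

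The study set N31 cells that overexpressed Pax6, which codes for a DNA-binding regulator of eye and brain development, against N31 cells that overexpressed EGFP, a green fluorescent protein. N31 is a mouse neural progenitor line of strain 129/Ola, derived from induced pluripotent stem cells, and both lines carry Oct3/4, Sox2, Klf4 and c-Myc under a doxycycline switch. Pax6 or EGFP was brought in on a CAG-driven plasmid by the Tol2 transposon, and RNA was taken 24 h after doxycycline, when only the EGFP cells had visibly changed shape. Each line was measured on 1 array, so no replicate checks a difference, no p-value is given, and "higher" and "lower" describe these 2 arrays.

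The values are fluorescence signals of single probes, so a level is compared between arrays and never between genes. Signals were divided by each array's 75th percentile (991 on the Pax6 array, 854 on the EGFP array), and differences are log2 values, Pax6 minus EGFP. The error after ± is the scanner software's error of the measurement, and the number of arrays limits the precision. A gene was used when the software called it well above background on at least 1 array. Where it was so on 1 array only, the fold is a lower bound, written "at least". All 7 listed markers of neural progenitors were above background on both arrays, with summed signals, before scaling, of 129640 on the Pax6 array and 105642 on the EGFP array. Vim made up most of both sums, and their ratio after scaling was 1.06. Of these markers Sox2 was at least 2-fold higher, Nes and Slc1a3 were at least 2-fold lower, and Vim and Msi1 were within 2-fold. Both lines carry Sox2 under the doxycycline switch, and whether the Sox2 probe reads that transgene was not tested. The brightest Pax6 probe read 822 on the Pax6 array and 557 on the EGFP array, a difference of 0.35 ± 0.20. The sources used here do not say whether this probe reads the transgene, so it checks no label.

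Fewer than 1 channel gene in 2 gave a signal. Of the 121 genes, 58 (47.9%) were above background on at least 1 array, against 66.8% of all named genes. The share was 47.6% for potassium, 41.7% for sodium and 52.0% for calcium channel genes. Of the 58 genes, 49 were above background on both arrays, 7 on the Pax6 array only and 2 on the EGFP array only. Of all 18687 genes used, 17311 were so on both arrays, 1047 on the Pax6 array only and 329 on the EGFP array only. The other 63 genes were not above background on either array, where they read at most 13.05 (Pax6) and 12.75 (EGFP), and have no difference to report.

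**Figure D1:**
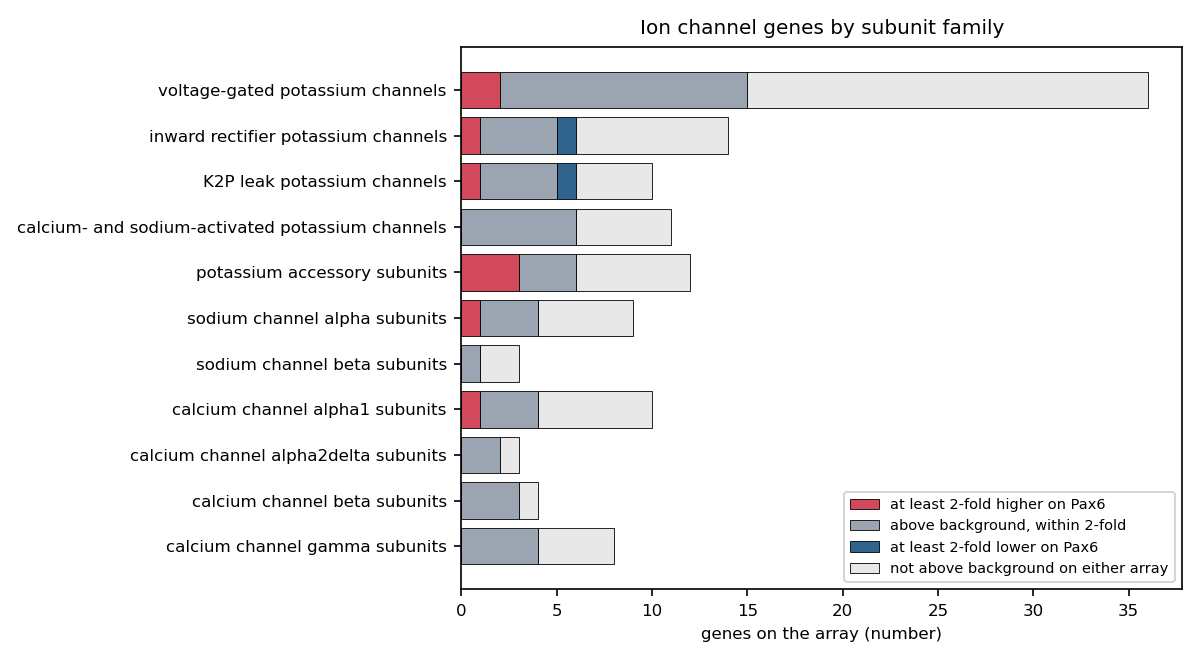
Number of channel genes in each subunit family, split into genes higher by the 2-fold rule, within 2-fold, lower by that rule, and not above background on either array. Voltage-gated potassium channels are the largest family with 36 genes, of which 21 were not above background, and accessory potassium subunits hold 3 of the 9 higher genes. Kcnq1ot1 is not drawn. The within 2-fold part also holds genes with a bound under 2-fold and the 2 genes that have no fold.

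By the rule of at least 2-fold, 9 channel genes were higher in the Pax6 cells than in the EGFP cells and 2 were lower. Among the higher genes were Kcnip1, Kcnk2, Cacna1c, Kcnab1, Kcnj12, Kcna4, Kcne3 and Kcnf1, and the lower genes were Kcnj4 and Kcnk6. Together the 11 genes were 19.0% of the 58 genes used, where the same rule took 4.85% of all 18687 genes used (2.39% higher and 2.46% lower). This count depended on the processing, and the parts played by background correction and its offset were not tested separately. With normexp background correction (offset 50) followed by quantile normalization, called normexp correction from here on, 1 of the 58 genes was at least 2-fold different (1.72%), Kcnab1, against 1.51% of all genes. Quantile normalization alone left 9 higher and 2 lower. At a rule of at least 3-fold, 1 of 58 (Kcnip1) was counted, against 1.43% of all genes.

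Promoters of these genes are shown to give the sequence at the gene start. RefSeq windows (build GRCm38.p6) of 250 bases before to 50 bases after a transcription start were found for 90 of the 121 genes, and for 9 of the 11. The E-box CACCTG, read on both strands as CACCTG or CAGGTG, is the letter pattern bound by Zeb and Snail repressors, and the GC box GGGCGG or CCGCCC is that of Sp factors. The window is printed for 3 of the genes with a single listed start, 2 of them higher and 1 lower, in lower case with both motifs in capitals.
Kcna4, chr2:107290339-107290638, plus strand: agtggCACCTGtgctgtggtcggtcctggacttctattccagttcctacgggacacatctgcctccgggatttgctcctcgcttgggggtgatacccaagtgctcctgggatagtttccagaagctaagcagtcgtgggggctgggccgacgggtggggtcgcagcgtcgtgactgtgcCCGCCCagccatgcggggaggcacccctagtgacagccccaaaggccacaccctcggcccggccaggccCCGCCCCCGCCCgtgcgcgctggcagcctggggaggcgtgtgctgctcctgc
Kcnj12, chr11:61065554-61065853, plus strand: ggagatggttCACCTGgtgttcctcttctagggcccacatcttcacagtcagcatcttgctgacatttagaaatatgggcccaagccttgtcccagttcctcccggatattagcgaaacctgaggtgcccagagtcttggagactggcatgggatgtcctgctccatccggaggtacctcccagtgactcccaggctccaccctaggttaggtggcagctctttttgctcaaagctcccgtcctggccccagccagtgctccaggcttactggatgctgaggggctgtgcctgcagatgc
Kcnj4, chr15:79505192-79505491, minus strand: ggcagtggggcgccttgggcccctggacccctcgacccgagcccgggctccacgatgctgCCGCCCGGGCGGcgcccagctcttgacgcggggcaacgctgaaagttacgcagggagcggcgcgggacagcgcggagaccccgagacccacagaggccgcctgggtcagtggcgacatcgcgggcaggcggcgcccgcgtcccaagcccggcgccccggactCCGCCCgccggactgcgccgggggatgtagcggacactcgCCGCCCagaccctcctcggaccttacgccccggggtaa

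Of the lower genes only Kcnj4 has a window, so windows cannot be compared by direction of the difference. The window of Kcnj4 holds 4 GC boxes, no E-box and 41 CpG dinucleotides, and that of Kcnj12 holds 1 E-box, no GC box and 4 CpG. The window of Kcna4 holds 1 E-box, 3 GC boxes and 20 CpG, and that of Kcnf1 holds neither motif and 3 CpG. An E-box was in 23.4% of the 124 windows of channel genes and in 20.2% of all 32851 windows, and a GC box in 46.8% of the channel windows and 35.7% of all. The 18 windows of genes at least 2-fold higher come from 8 genes. Of these windows, 27.8% held an E-box and 33.3% a GC box, and their median was 6.5 CpG. The median window held 9.0 CpG in channel genes and 7.0 over all windows. No test was made of these shares. These are matches of letters and not known binding sites.

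The differences were not a shift of the whole set. The median log2 difference of the channel genes was -0.04, that of all genes used -0.01, and 24 channel genes lay above 0 and 32 below. Of all genes used, 8817 lay above 0 and 9609 below. With each array scaled to its median, 32 channel genes lay above 0 and 25 below, so the sign of the small differences depended on the scaling. That scaling moved the median of all genes used to 0.07. The median was -0.02 for potassium, -0.08 for sodium and -0.09 for calcium channel genes. The median size of a difference, without its sign, was 0.27 for the channel genes and 0.18 for all genes.

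Dim probes vary more, and most channel probes were dim. Of the 58 genes, 30 had a mean signal over both arrays under 50, and 5 of these (16.7%) were at least 2-fold different, against 8.66% of all genes in that band. Between 50 and 200 there were 4 of 14 (28.6%), against 9.45% of all genes. At 200 and over there were 2 of 14 (14.3%), Kcnf1 and Kcnab1, against 2.17% of all genes. No test was made of these shares.

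**Figure D2:**
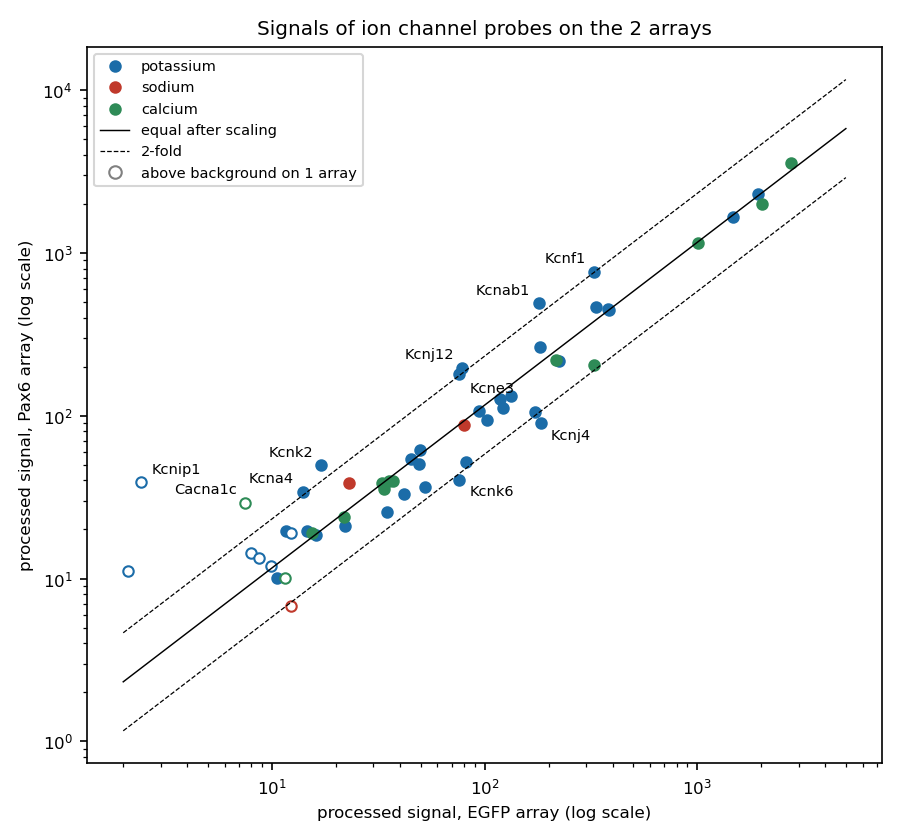
Processed signal of channel genes on the EGFP array (horizontal, log scale) and on the Pax6 array (vertical, log scale), by ion. The solid line marks equal signals after scaling and the dashed lines 2-fold, and open points are genes above background on 1 array. The 8 higher genes drawn lie above the upper dashed line, from Kcnip1 at 39.0 on the Pax6 array and 2.42 on the EGFP array to Kcnf1 at 767 on the Pax6 array and 326 on the EGFP array.

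**Figure D3:**
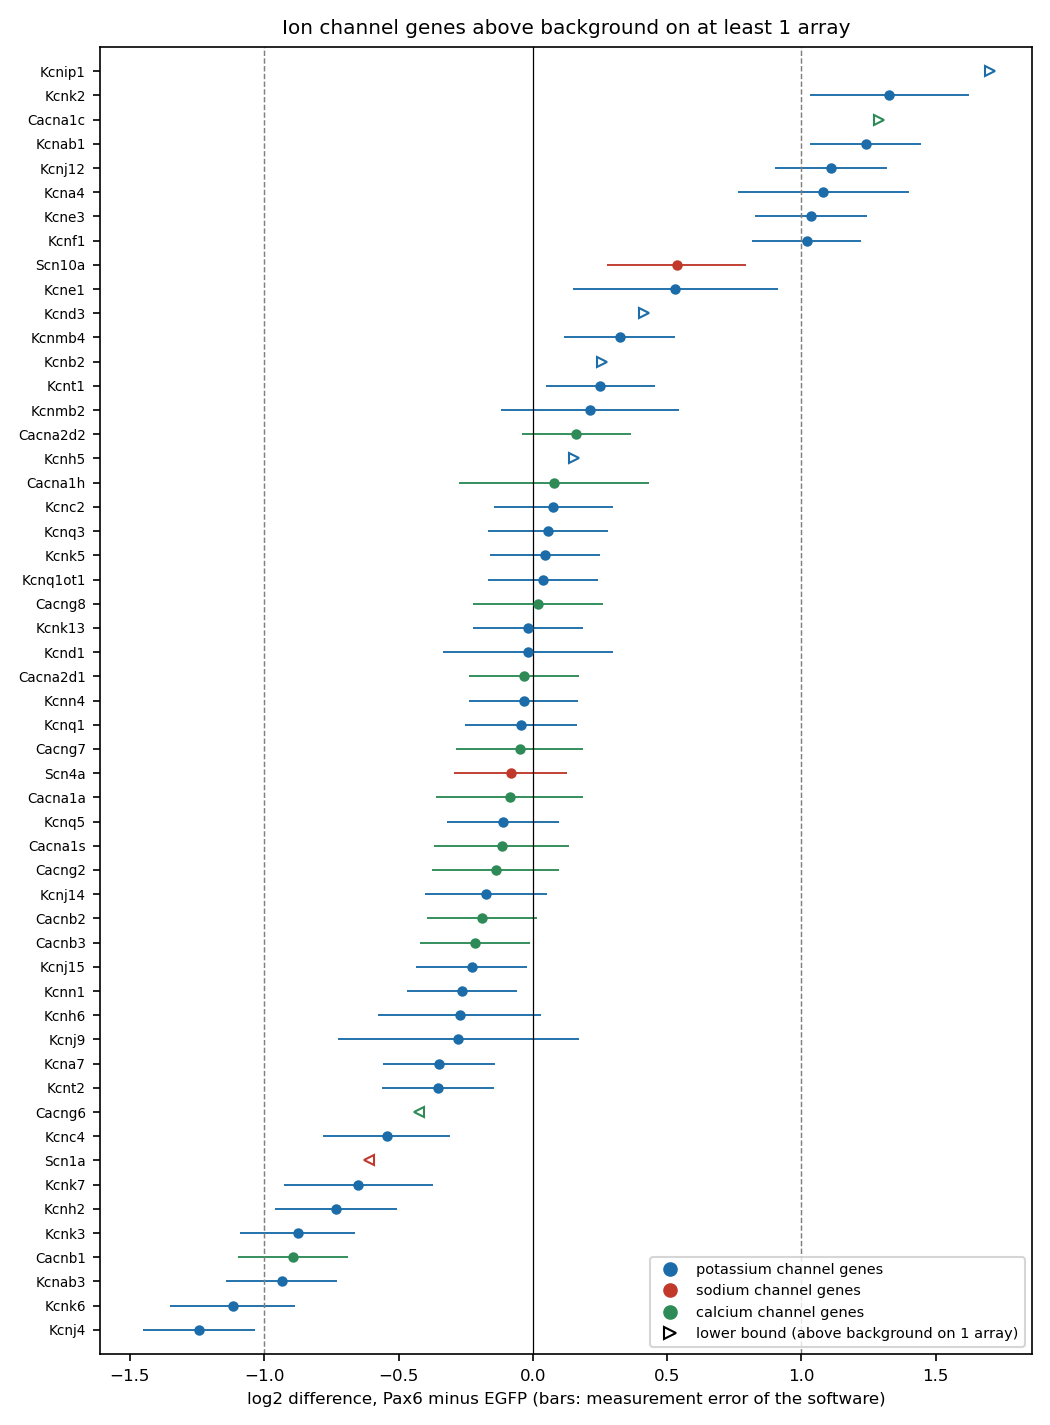
Log2 difference, Pax6 minus EGFP, of 53 channel genes, with the software's measurement error as bars and lower bounds as open triangles. Dashed lines mark 2-fold, and the point named Kcnq1 is the probe that carries the Kcnq1ot1 accession. From Kcnf1 at 1.02 the next gene down is Scn10a at 0.53, while on the lower side Kcnab3 at -0.94 and Cacnb1 at -0.89 follow closely on Kcnk6.

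Voltage-gated potassium channels form the largest family, and 15 of its 36 genes were used. Kcnf1 and Kcna4 were higher and the other 13 lay within 2-fold or had bounds below it. Kcnf1 encodes a modulatory subunit that forms no channel by itself and acts by joining other subunits. Its probe (mm7, chromosome 12, 17227061 to 17227120) read 767 on the Pax6 array and 326 on the EGFP array, a 2.03-fold difference of 1.02 ± 0.20, and 0.87 with normexp correction. A second probe that the array names Kcnf1 lies on the opposite strand to the gene and was not above background. Kcnb2, a partner of Kcnf1, read 14.3 on the Pax6 array and 8.02, not above background, on the EGFP array.

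Kcna4 encodes a fast-inactivating channel of the A type, which delays repeated firing in neurons. Its probe (chromosome 2, 107148704 to 107148763) read 34.2 on the Pax6 array and 13.9 on the EGFP array. The difference was 1.08 ± 0.32 and was 0.27 with normexp correction, whose offset is larger than either signal. At this signal the fold depends on the processing and is not settled. Of the other Kcna genes only Kcna7 was above background, and it differed by -0.35 ± 0.21. Kcna1, Kcna2, Kcna3, Kcna5 and Kcna6 were not, although the probe that stands for Kcna6 lies on the strand opposite to that gene.

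Below the rule in this family, Kcnh2, the ERG channel that repolarises heart muscle, read 36.7 on the Pax6 array and 52.5 on the EGFP array, a difference of -0.73 ± 0.23. Kcnc4 differed by -0.54 ± 0.24, while its relative Kcnc2 differed by 0.08 ± 0.22. The M-current genes Kcnq3 and Kcnq5 differed by 0.06 ± 0.22 and -0.11 ± 0.21. Kcnd3 was above background on the Pax6 array only, at 19.1, and was at least 1.33-fold higher there. This log2 bound of 0.41 was about the size of its error, 0.41. Kcnd1 differed by -0.02 ± 0.32.

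At the Kcnq1 locus the channel and its antisense RNA have to be told apart. Kcnq1ot1 is an imprinted non-coding RNA that runs opposite to Kcnq1 and silences neighbouring genes on the paternal chromosome. The brighter of the 2 probes named Kcnq1 (chromosome 7, 139684939 to 139684998) carries the RefSeq accession of Kcnq1ot1 and lies on the same strand as the Kcnq1ot1 probe, so it is not taken as a reading of the channel. The other Kcnq1 probe (139854115 to 139854174) read 22.9 on the Pax6 array and 19.4 on the EGFP array, a difference of 0.02 ± 0.32. Kcnq1ot1 itself (139704409 to 139704468) read 2292 on the Pax6 array and 1925 on the EGFP array, a difference of 0.04 ± 0.20. Both differences were smaller than their measurement errors.

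Inward rectifier channels, the Kcnj genes, pass potassium most easily into the cell and hold the resting potential. Of 14 genes, 6 were used, and the strong rectifiers Kcnj12 and Kcnj4 differed in opposite directions. Kcnj12 (chromosome 11, 61152141 to 61152199) read 197 on the Pax6 array and 78.6 on the EGFP array, 2.16-fold higher at 1.11 ± 0.21. Kcnj4 (chromosome 15, 79568111 to 79568169) read 89.8 on the Pax6 array and 183 on the EGFP array, 2.37-fold lower at -1.24 ± 0.21. With normexp correction the differences were 0.84 for Kcnj12 and -0.80 for Kcnj4.

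The probes of Kcnj4 disagreed. Its dimmer probe (79569088 to 79569147) read 21.1 on the Pax6 array and 20.5 on the EGFP array, a difference of -0.18 ± 0.32. The mean of both Kcnj4 probes was -0.71, within 2-fold. This was the only gap of at least 2-fold among 14 pairs of channel probes that were above background on both arrays. Their median gap was 0.13, and 11 pairs shared a sign. The 14 include the Kcnq1 pair, whose brighter probe carries the Kcnq1ot1 accession and whose signs differed. Kcnj10, the rectifier of astrocytes and oligodendrocytes, was not above background on either array, nor were Kcnj2, Kcnj8, Kcnj11 and Kcnj16. Kcnj14 and Kcnj15 differed by -0.17 ± 0.23 and -0.23 ± 0.21.

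Leak channels, the Kcnk genes, are open at rest. Of 10 genes, 6 were used, all above background on both arrays, and they spread from -1.12 to 1.33. Kcnk2, which encodes the stretch- and lipid-sensitive channel TREK-1, read 49.7 on the Pax6 array and 17.1 on the EGFP array (chromosome 1, 188741191 to 188741250). It was 2.51-fold higher at 1.33 ± 0.30, and 0.42 with normexp correction. Kcnk6 (chromosome 7, 26161668 to 26161727) read 40.5 on the Pax6 array and 75.7 on the EGFP array. It was 2.17-fold lower at -1.12 ± 0.23, and -0.26 with normexp correction.

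Kcnk3, which encodes the acid-sensitive leak channel TASK-1, lay just inside 2-fold. It read 51.7 on the Pax6 array and 81.7 on the EGFP array, a difference of -0.88 ± 0.21, and its second probe differed by -1.14. Both probes of Kcnk7 were lower as well, by -0.65 and -0.68. Kcnk5 and Kcnk13 had brighter probes and did not differ beyond their error. Kcnk5 read 455 on the Pax6 array and 380 on the EGFP array (0.04 ± 0.20), and Kcnk13 read 443 on the Pax6 array and 386 on the EGFP array (-0.02 ± 0.20).

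Potassium channels gated by intracellular calcium or sodium were close on the 2 arrays. All 6 used genes of 11 lay within 2-fold, between -0.35 and 0.32. Kcnn4, the intermediate-conductance calcium-activated channel of blood cells and epithelia, read 1670 on the Pax6 array and 1475 on the EGFP array, a difference of -0.03 ± 0.20. Kcnt1, a sodium-activated channel, read 462 on the Pax6 array and 335 on the EGFP array (0.25 ± 0.20). Kcnmb4, the neuronal partner of the large-conductance channel, differed by 0.32 ± 0.21, while Kcnma1, the gene of that channel's pore, was not above background on either array. Both probes of Kcnt2 were lower, at -0.35 and -0.74.

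Accessory subunits attach to voltage-gated potassium channels and change their gating or transport. Of 12 genes, 6 were used and 3 were at least 2-fold higher: Kcnip1, Kcnab1 and Kcne3. Kcnab1 encodes a cytoplasmic beta subunit that speeds inactivation of Kcna channels. Its probe (chromosome 3, 65479155 to 65479214) read 492 on the Pax6 array and 180 on the EGFP array, 2.36-fold higher at 1.24 ± 0.21. Of the 11 genes it alone stayed past 2-fold with normexp correction, at 1.16. A dim second probe of Kcnab1 read 13.1 on the Pax6 array and 8.68, not above background, on the EGFP array. With that probe at its bound of 0.13, the mean of both probes was 0.68. This mean is under the 2-fold rule but is itself a lower bound.

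Kcne3 encodes a single-pass membrane subunit that holds Kcnq1 channels open in epithelia. Its 2 probes agreed in sign and size. The brighter (chromosome 7, 96230794 to 96230853) read 181 on the Pax6 array and 75.8 on the EGFP array, 2.05-fold higher at 1.04 ± 0.21. The other read 141 on the Pax6 array and 53.8 on the EGFP array, a difference of 1.18 ± 0.21. With normexp correction Kcne3 differed by 0.71.

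Kcnip1 encodes a calcium-binding partner of Kcnd channels. Its probe (chromosome 11, 33582521 to 33582580) read 39.0 on the Pax6 array and 2.42, not above background, on the EGFP array. The bound is at least 3.25-fold, and 0.65 on the log2 scale with normexp correction. The remaining used accessory genes were Kcnab3, which was lower at -0.94 ± 0.21 with 105 on the Pax6 array and 173 on the EGFP array, Kcne1 at 0.53 ± 0.38, and Kcnab2, which was too dim for a fold. Kcnip2, Kcnip3, Kcnip4, Kcne2, Kcne4 and Kcne1l were not above background.

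Of 12 sodium channel genes, 5 were used. Their alpha subunits form the pore. Scn10a, a channel of pain-sensing neurons, read 38.9 on the Pax6 array and 23.1 on the EGFP array, a difference of 0.53 ± 0.26 that was 0.17 with normexp correction. The dimmer Scn10a probe went the other way, at least 1.42-fold lower, a log2 bound of -0.51 with an error of 0.44. It read 10.5, not above background, on the Pax6 array and 12.9 on the EGFP array. Scn11a, also a channel of pain-sensing neurons, was not above background. Scn1a read 12.2 on the EGFP array and was not above background on the Pax6 array, at least 1.53-fold lower. Scn4a differed by -0.08 ± 0.21. The brain channel genes Scn3a and Scn8a and the beta subunit genes Scn2b and Scn3b were not above background on either array, and Scn2a1 read 18.8 on the Pax6 array and 24.1 on the EGFP array (-0.57 ± 0.28).

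Among calcium channel genes, 13 of 25 were used and 1 was past 2-fold. Cacna1c encodes the pore of the main L-type channel of heart, smooth muscle and neurons. Its probe (chromosome 6, 118618739 to 118618798) read 29.3 on the Pax6 array and 7.47, not above background, on the EGFP array, which makes it at least 2.44-fold higher. With normexp correction the bound was 0.40 on the log2 scale, and a second Cacna1c probe was not above background. The other alpha1 genes used, Cacna1a, Cacna1h and Cacna1s, lay between -0.12 and 0.08. The genes of the remaining L-, N-, R- and T-type pores, Cacna1b, Cacna1d, Cacna1e, Cacna1f, Cacna1g and Cacna1i, were not above background.

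Of the accessory calcium channel genes used, all lay within 2-fold or, for Cacng6, had a bound below it. Cacna2d2 and Cacna2d1 encode alpha2delta proteins, which carry the channel to the surface. Cacna2d2 read 3565 on the Pax6 array and 2746 on the EGFP array (0.16 ± 0.20), and Cacna2d1 read 1147 on the Pax6 array and 1012 on the EGFP array (-0.03 ± 0.20). The beta subunits bind the pore inside the cell and aid its folding. Cacnb3 read 2008 on the Pax6 array and 2010 on the EGFP array (-0.22 ± 0.20). Cacnb1, the beta subunit of skeletal muscle, read 205 on the Pax6 array and 328 on the EGFP array, a difference of -0.89 ± 0.20. The brightest probe of Cacnb2 differed by -0.19, and its 2 dimmer ones by -0.53 and -0.88. The 4 gamma genes used lay between -0.42 and 0.02, where Cacng6 counts at its bound.

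Just inside 2-fold stood Kcnab3, Cacnb1, Kcnk3 and Kcnh2, all lower on the Pax6 array, from -0.94 to -0.73. Just past the rule stood Kcnf1 at 1.02 and Kcne3 at 1.04. When a gene's probes were averaged, bounds included, Kcnk3 was among those that crossed to the lower side of the rule. Kcnj4 fell inside 2-fold, as did Kcnab1 with its dim probe at its bound, and the counts became 8 genes higher and 3 lower. Averaging put 19.0% of the channel genes used past the rule, against 4.7% of all genes.

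**Figure D4:**
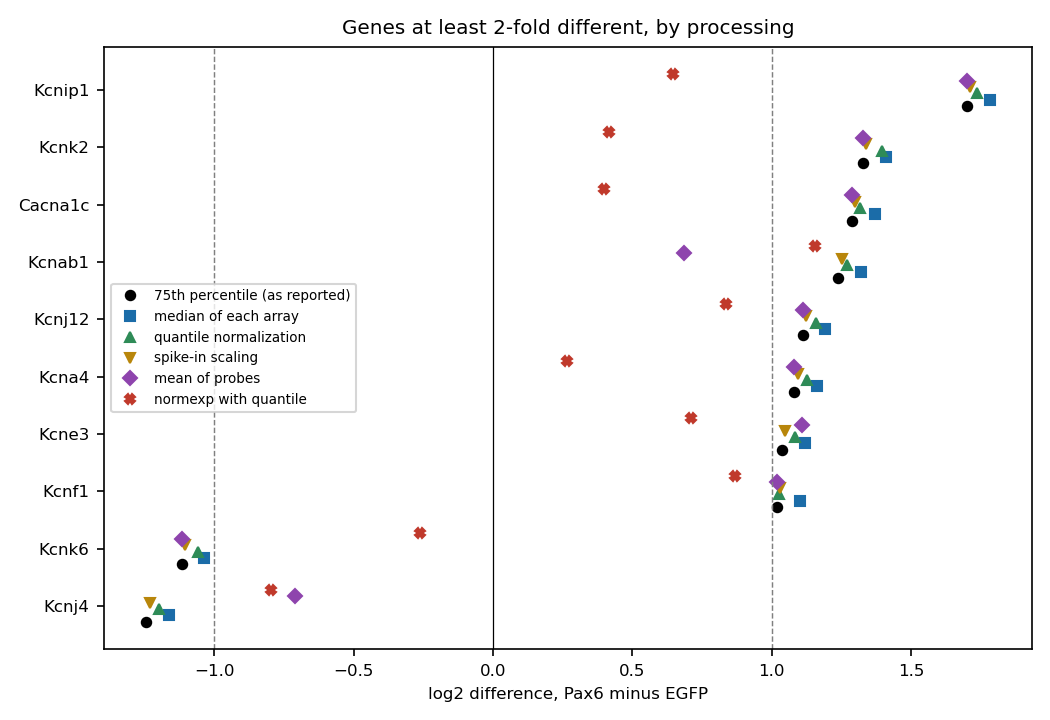
Log2 difference, Pax6 minus EGFP, of 10 genes at least 2-fold different, under the reported scaling and 5 other settings. The 4 scalings of the processed signal lie close together, while normexp correction moves each gene toward 0 and leaves Kcnab1 alone past 2-fold at 1.16. Averaging probes moves Kcnab1 to 0.68, with its dim probe at its bound, and Kcnj4 to -0.71.

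Where channel genes neighbour each other within 500000 bases on mm7, no 2 neighbours were both past 2-fold. In most of these pairs a gene was not above background, so few pairs could have been. Kcnip1 lies 342338 bases from Kcnmb1, which was not above background. The Kcna5, Kcna1 and Kcna6 cluster on chromosome 6 gave no gene above background.

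Rest, the repressor that keeps many neuronal channel genes off outside neurons, was well detected on both arrays. It read 2898 on the Pax6 array and 2170 on the EGFP array, a difference of 0.20 ± 0.20. The first part of its binding site, TTCAGCACC or its reverse complement GGTGCTGAA, was found in 1 of the 124 channel windows (0.806%) and in 0.371% of all windows.

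Other genes of membrane excitability, from 4 lists, were past 2-fold in 2 of 21 channel partners and regulators, 5 of 36 other cation channels, 1 of 20 chloride channels and 1 of 23 pumps and exchangers used, against the 4.85% of all genes. Fgf13, whose product binds the tails of sodium channels and modulates their inactivation, had the largest difference of these. It read 699 on the Pax6 array and 123 on the EGFP array, 4.88-fold higher at 2.29 ± 0.21, and 1.89 with normexp correction. Rem2, a small GTPase that inhibits calcium channels, read 50.1 on the Pax6 array and 119 on the EGFP array, at -1.46 ± 0.22, and -0.73 with normexp correction, within 2-fold.

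Of the other cation channels, 4 were lower and 1 higher. Trpv3, a heat-sensitive channel of skin, was 3.94-fold lower at -1.98 ± 0.22, and the proton channel gene Hvcn1 2.46-fold lower at -1.30 ± 0.21. Mcoln3 was lower at -1.22 ± 0.29 and Trpv4, an osmosensitive channel, at -1.16 ± 0.21. Trpc6 was at least 2.69-fold higher. With normexp correction Trpv3 alone of these 5 stayed past 2-fold, at -1.03, while Hvcn1 was at -0.82, Mcoln3 at -0.37, Trpv4 at -0.88 and Trpc6 at 0.58. The chloride channel gene Cftr read 583 on the Pax6 array and 214 on the EGFP array, 2.34-fold higher at 1.23 ± 0.20, and 1.05 with normexp correction. The pacemaker channel genes Hcn2, Hcn3 and Hcn4 were within 2-fold.

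Markers of cell types that use these channels also differed between the arrays. All 5 epithelial markers with a probe were at least 2-fold lower, with a summed signal of 25072 on the Pax6 array and 59232 on the EGFP array, before scaling as for all these sums, and a ratio after scaling of 0.365. With normexp correction 3 of the 5 stayed past 2-fold, and Cldn3 at -0.68 and Cldn6 at -0.77 did not. Of 7 smooth muscle and mesenchymal markers, 4 were lower and 1 higher, with sums of 30653 on the Pax6 array and 19032 on the EGFP array that Acta2 and Col3a1 dominate, and a scaled ratio of 1.39. Among them Des was at -0.55 with normexp correction. Of 6 neuronal markers with a probe, Snap25 was lower, with sums of 4953 on the Pax6 array and 5196 on the EGFP array (scaled ratio 0.822), and Dcx was not above background. Of 6 astrocyte markers Aqp4 was at least 3.86-fold higher and Slc1a2 was not above background. Gja1 made up most of the astrocyte sums of 3148 on the Pax6 array and 2187 on the EGFP array (scaled ratio 1.24). With normexp correction the bound of Aqp4 was 0.67 on the log2 scale, under 2-fold. Of 6 oligodendrocyte markers Mbp was lower, and Mog and Olig1 were not above background. Cspg4 made up most of the oligodendrocyte sums of 3813 on the Pax6 array and 5380 on the EGFP array (scaled ratio 0.611). The part of these cell types in the channel differences was not tested. In RNA of whole cultures, fewer cells of a type and less RNA per cell cannot be told apart.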

How the data were processed

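Total RNA of the Pax6 and EGFP lines was labelled with Cy3, per the labels' protocols, and hybridised to 1 Agilent 1-colour array each. Agilent Feature Extraction, in version 10.7.3.1 by the headers, read the spots. The authors deposited intensity as processed signals that, per the file headers, were detrended over the array, with surrogate values for dim spots. They were not normalized between arrays, and the series table repeats them (largest difference 0.0). Flags (unit other), also deposited, mark spots well above background (13 background SDs, per the file headers), saturated or outlying.

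Outlier spots (52 on the Pax6 array, 51 on the EGFP array) were left out, log2 signals were set against each array's 75th percentile, and spots of a probe were averaged. The brightest probe above background stood for its gene. A gene dim on 1 array has a lower bound, against the higher of its own dim signal and the lowest signal above background (9.72 on the Pax6 array, 10.35 on the EGFP array), and the 2 genes whose bound was under 1 have no fold. Bounds enter counts and medians. The measurement error had a median of 0.21 over channel genes. Among 172 measured probes with replicate spots, the SD of the difference had a median of 0.08 and a 95th percentile of 0.44. The 8 spike-ins differed by -0.05 to 0.09. Accessions gave current symbols for the probes of 97 of 121 members, including all 11 past 2-fold, and array names were kept. Probe coordinates are those of mm7, for which exons were not looked up. Array and line cannot be told apart. Some genes are counted but not reported by name or drawn here.

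The members and lists were chosen with earlier results of these data known. Genes were named when at least 2-fold different, brightest, nearest to the rule or with probes that disagree, and up to 4 at least 2-fold different from each other list. Further genes are examples chosen after their values were seen. Other scalings, normexp correction, filters on dim probes, summaries of probes and stricter rules were tried. Python 3.11.15 and R 4.3.3 with limma 3.58.1 were used, and the steps were tested on simulated data.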

Additional observations from a re-analysis of the deposited data

How the results depend on the processing

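The 9 higher and 2 lower genes were the same genes with median scaling, quantile normalization and spike-in scaling. Normexp correction with an offset of 50, with quantile normalization, left 1 higher and 0 lower. A rule of at least 3-fold also left 1 and 0, and this stricter rule removes genes by construction. The offset, added to both signals, also draws each difference toward 0 by construction, most where the signals are low. How much of the normexp result came from the offset alone was not tested. Without a filter on dim probes all 121 genes counted, with 15 higher and 13 lower, against 8.88% of all genes, and the sodium median was 0.39. With genes above background on both arrays, 7 were higher and 2 lower (18.4%), against 4.07% of all genes. The sodium median was then 0.23, since the bound of Scn1a drops out. The 2-fold genes that also differed by more than 2 times the error were 8 higher (without Kcnip1, whose error is large) and 2 lower. These were 17.2% of the channel genes used, against 4.54% of all genes. Scaling by the median put 59.3% of all 2-fold genes on the higher side, against 49.2% as reported. Of the 24 named channel genes, 12 moved by more than their error with normexp and 2 with the mean of probes, and no named value past 2-fold changed sign in these settings. No paired analysis was possible because each group has 1 array, and for the same reason no replicate could be left out. Signals near background limit Kcna4, Kcnk2, Cacna1c and Kcnip1.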
